A study of Homo sapiens with 8 samples.

Results

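Phenformin at 1 mM was compared with metformin at 5 mM in C4-2 cells, each given for 24 h. The comparison covered all genes with at least 1 RPKM (reads per kilobase of exon, scaled to the mapped reads of the library) in at least 2 of 5 libraries, which were 2 phenformin libraries and 3 metformin libraries. Of 57773 gene features in the deposited table, 11050 met this limit. C4-2 is a human prostate cancer line derived from LNCaP cells, and it grows without androgen. The cells were grown for 2 days in T medium with heat-inactivated serum before exposure, and a further 3 libraries of cells given the vehicle PBS for 24 h are set beside the treated cells as the untreated level, with no test. The whole table held 8 libraries. All groups are 1 cell line, and the labels do not say whether replicates came from separate cultures, so the error behind each p-value is the library-to-library spread and could be technical alone. The doses differ, so compound and dose cannot be told apart in any difference given here.

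Metformin and phenformin are biguanides, drugs that lower blood glucose. Both inhibit complex I of the mitochondrial respiratory chain, the entry point of electrons from NADH, and so limit ATP production and activate the energy sensor AMPK. Phenformin carries a phenylethyl group on the biguanide where metformin carries methyl groups, and it is known as the more lipophilic and more potent of the pair. Cells with a blocked respiratory chain commonly show the integrated stress response, in which the factors ATF4 and CHOP induce genes of amino acid supply and of growth arrest.

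The treated libraries held 14611068 to 15876543 mapped reads with phenformin and 14169196 to 15898491 with metformin, against 13837455 to 44774670 with PBS. The deepest PBS library, replicate 1, may share reads with the other PBS libraries, so the PBS libraries may not be separate. Positions against PBS below are on the RPKM scale, with no correction for exon length or library composition. Gene features took 71.62% to 73.31% of the reads with phenformin, 72.01% to 75.11% with metformin and 77.25% to 78.61% with PBS. The first principal component of the 5 treated libraries carried 83% of the variance and separated phenformin from metformin, and the second carried 6.72%. All 10 luminal prostate markers on the list used to check the label (KRT8, KRT18, EPCAM, CDH1, KLK3, FOLH1, HOXB13 and TMPRSS2 among them) were above 1 RPKM in each library, and their summed level was 653 and 678 RPKM with phenformin, 585 to 634 RPKM with metformin and 1301 to 1428 RPKM with PBS. Of the markers of other cell types, 1 of 6 basal markers (EGFR), 1 of 8 neuroendocrine markers (DLL3), 2 of 8 stromal markers (VIM and COL1A1) and 0 of 8 immune and endothelial markers reached 1 RPKM.

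Phenformin and metformin gave different transcriptomes. At an adjusted p limit of 0.05 (limma on log2(RPKM + 0.1), Benjamini-Hochberg over all 11050 genes), 7151 genes differed, which is 64.7% of those compared. Expression was higher with phenformin for 4248 genes (38.4%) and lower for 2903 (26.3%). These shares are the background for the counts of every gene list below. At least 2-fold differences were fewer, with 669 genes higher (6.05%) and 304 lower (2.75%), and 3980 of the called genes differed by less than 1.5-fold. For 5238 genes the 95% interval of the difference lay within 1.5-fold in either direction. The libraries of the groups did not overlap for 8665 genes (78.4%). The scale log2(RPKM + 0.1) understates the change of genes of low level, and all differences below are phenformin minus metformin on this scale unless stated otherwise. The plot of the difference against the level shows the whole range, which reached 4.99 at the top and -4.08 at the bottom.

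**Figure D1:**
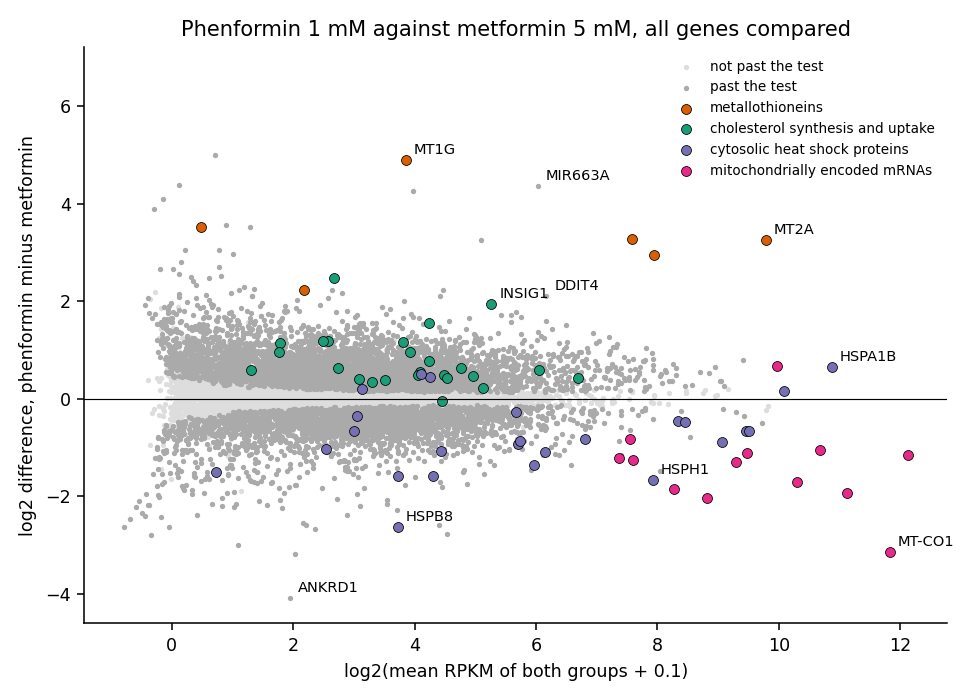
Each point is 1 of 11050 genes, with the mean level of the phenformin and metformin libraries on the horizontal axis (log2(RPKM + 0.1)) and the log2 difference, phenformin minus metformin, on the vertical axis. Metallothioneins lie above 2 on the vertical axis, cholesterol genes lie mostly above 0, and heat shock and mitochondrially encoded mRNAs lie mostly below 0.

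The median difference over all genes was 0.11, and 59.4% of the called genes were higher with phenformin. Part of this balance moved with exon length. Among the shortest of 10 length classes of equal size (117 to 1621 bases of exon) the median difference was 0.52 with 593 genes higher and 80 lower, and among the longest class (9497 to 36470 bases) it was -0.21 with 218 higher and 542 lower. Across genes, which are not independent replicates, Spearman's rho of the difference with exon length was -0.32, against -0.18 to 0.18 for the differences between replicates of a group. Whether RNA fragmentation or library preparation had a part in this was not tested. Lists are therefore also given after the trend of every library with exon length was removed, a choice made after the trend was seen, which left 3342 genes higher (30.2%) and 3617 lower (32.7%), so that 48.0% of calls were higher. Quantile normalization gave 48.0% as well. When each library was instead centred on its median, 3639 genes were higher (32.9%) and 3672 lower (33.2%). A call with the same sign was made for 5837 genes both on the RPKM scale and without the length trend.

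**Figure D2:**
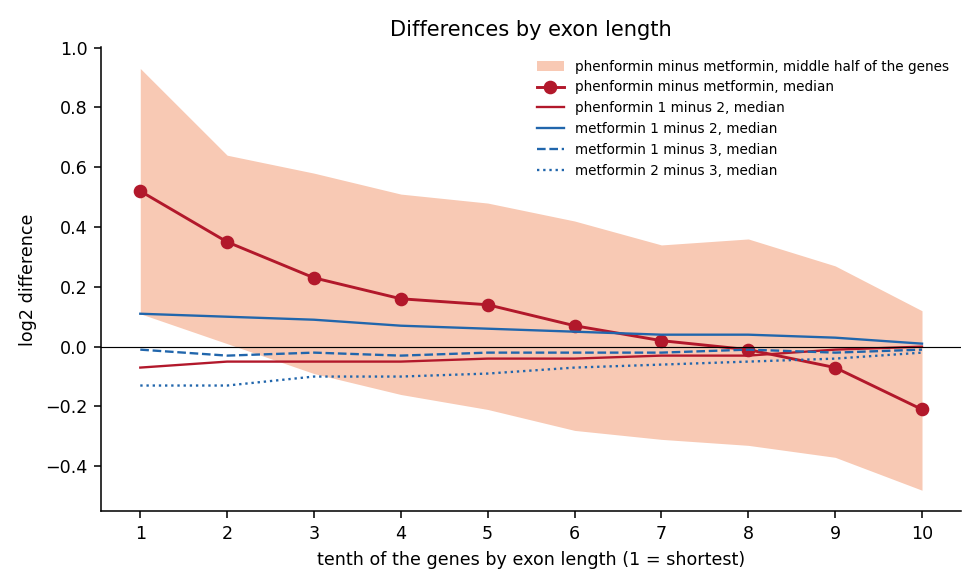
Median log2 difference in each of 10 classes of genes by exon length, from the shortest (1) to the longest (10), with 1105 genes in a class. The line with points is phenformin minus metformin, the band is the range from its lower to its upper quartile, and the other lines are differences between replicates of 1 group, whose medians stay between -0.13 and 0.11, while phenformin minus metformin runs from 0.52 in the shortest class to -0.21 in the longest.

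The largest rises with phenformin were in metallothioneins, small cysteine-rich proteins that bind zinc and copper and whose genes are induced by the metal-sensing factor MTF1. MT1G was at 26.7 and 29.0 RPKM with phenformin, against 0.954, 0.923 and 0.659 RPKM with metformin, and at 0.566, 0.0964 and 1.31 RPKM with PBS. The largest fitted difference of all (4.99) was that of MT1B, which had 3.48 and 2.70 RPKM with phenformin (21 and 15 reads) and was at 0 in each metformin and PBS library, so that its fitted value depends on the pseudocount. For MT1G the metformin libraries lay within the PBS range and both phenformin libraries far above it, with a difference of 4.90 ± 0.15 (SE, adjusted p = 1.3e-05). MT2A, the most abundant member, was at 1523 and 1680 RPKM with phenformin, against 155, 146 and 208 RPKM with metformin, and at 37.7, 33.9 and 32.9 RPKM with PBS (difference 3.25 ± 0.15, adjusted p = 2.8e-05). MT1F had 332 and 357 RPKM with phenformin, against 32.3, 31.9 and 42.9 RPKM with metformin, and 4.63 to 6.01 RPKM with PBS. MT1X had 441 and 433 RPKM with phenformin, against 64.4, 42.2 and 65.9 RPKM with metformin, and 7.55 to 14.4 RPKM with PBS. For MT2A, MT1F and MT1X every metformin library was above every PBS library and below every phenformin library. The less abundant MT1H (difference 3.52) and MT1A (2.22, adjusted p = 0.012) were also higher with phenformin. These genes are close copies of each other, so the split of reads among them is uncertain. MTF1 itself did not pass the test (-0.18, adjusted p = 0.066), and passed as lower after centring (-0.28, adjusted p = 0.010).

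Zinc transporters moved in both directions. On the list of metallothioneins and zinc transporters, 16 of 18 genes were compared. Of these, 8 were higher and 3 lower (8 and 4 without the length trend), beside 38.4% and 26.3% of all genes. When each library was centred on its median, 8 were higher and 7 lower, with no metallothionein among the lower. Metallothioneins made up 6 of the 8 higher genes on the RPKM scale. The other 2 were SLC30A1, the zinc exporter of the plasma membrane, and SLC30A4. SLC30A1, like the metallothioneins a target of MTF1, was at 107 and 110 RPKM with phenformin, against 34.6, 34.8 and 38.3 RPKM with metformin, and at 8.32 to 8.56 RPKM with PBS (difference 1.59 ± 0.06, adjusted p = 2.1e-05). The zinc importer SLC39A10 fell to 2.64 and 2.63 RPKM with phenformin, against 7.15, 7.67 and 6.74 RPKM with metformin, and was at 11.4 to 11.7 RPKM with PBS. The importers SLC39A6 (-0.46) and SLC39A14 (-0.48) were lower as well.

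The promoters of the metallothionein genes are shown because the metal response element, the site that MTF1 binds, is dense in them. Of the 6 compared metallothioneins on the list, which leaves out MT1B, 3 had a promoter in the RefSeq table (GRCh38.p14). The 250 bases before the start are printed 5′ to 3′ on the strand of the gene, with matches to TGCGCNC or TGCACNC on either strand in capitals, from chr16:56608334-56608583 (MT2A), chr16:56682220-56682469 (MT1X) and chr16:56669564-56669813 (MT1H), all on the plus strand.
MT2A: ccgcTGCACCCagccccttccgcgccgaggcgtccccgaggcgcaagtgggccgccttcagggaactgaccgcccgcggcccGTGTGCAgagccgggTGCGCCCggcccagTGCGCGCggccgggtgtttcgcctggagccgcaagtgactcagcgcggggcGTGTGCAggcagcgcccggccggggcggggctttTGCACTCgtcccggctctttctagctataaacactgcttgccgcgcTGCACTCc
MT1X: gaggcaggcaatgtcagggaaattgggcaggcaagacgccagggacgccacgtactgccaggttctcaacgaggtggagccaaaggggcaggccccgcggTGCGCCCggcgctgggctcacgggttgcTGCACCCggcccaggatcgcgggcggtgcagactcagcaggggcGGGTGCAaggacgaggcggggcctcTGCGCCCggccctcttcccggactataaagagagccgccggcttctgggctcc
MT1H: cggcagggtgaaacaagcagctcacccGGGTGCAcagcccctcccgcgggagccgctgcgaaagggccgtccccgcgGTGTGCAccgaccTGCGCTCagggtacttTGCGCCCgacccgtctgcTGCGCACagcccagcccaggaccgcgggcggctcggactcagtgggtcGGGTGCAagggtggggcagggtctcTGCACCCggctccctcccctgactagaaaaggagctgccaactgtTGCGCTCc
MT2A held 7 matches, MT1X held 4 and MT1H held 8, none overlapping another. At least 1 match was found before a start of 28.5% of 27305 genes, and 4 or more before a start of 0.458%. A match describes the letters and does not show that MTF1 was bound.

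Other genes at the top of the list were of mixed function. MIR663A (4.36) and ANKRD30BL (4.26), which holds a close copy of that microRNA, may share reads and are uncertain, and RP11-343H19.2 (3.26) has no named function. H2AFX, the histone variant H2A.X that is phosphorylated at DNA breaks, was at 34.6 and 38.3 RPKM with phenformin, against 8.10, 6.74 and 8.35 RPKM with metformin, and at 24.8 to 29.7 RPKM with PBS (difference 2.23 ± 0.10). SLC29A1, a nucleoside transporter, was at 9.89 and 10.4 RPKM with phenformin, against 2.02 to 2.26 RPKM with metformin, and at 10.7 to 12.2 RPKM with PBS (2.22 ± 0.08). RAB3A, a small GTPase of vesicle release, was at 11.5 and 11.2 RPKM with phenformin, against 2.00 to 3.22 RPKM with metformin, and at 9.84 to 10.8 RPKM with PBS. In H2AFX, SLC29A1 and RAB3A the metformin libraries stood apart from both other groups. Over the 669 genes at least 2-fold higher with phenformin, all metformin libraries lay below all PBS libraries for 525, and for 208 of these all phenformin libraries also lay above all PBS libraries. Among all 11050 genes compared, the metformin libraries lay below PBS for 51.2%. Metformin below and phenformin above PBS was found for 6.51% of all genes. The 669 genes were selected for lower levels with metformin than with phenformin, which by itself favours these positions.

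**Figure D3:**
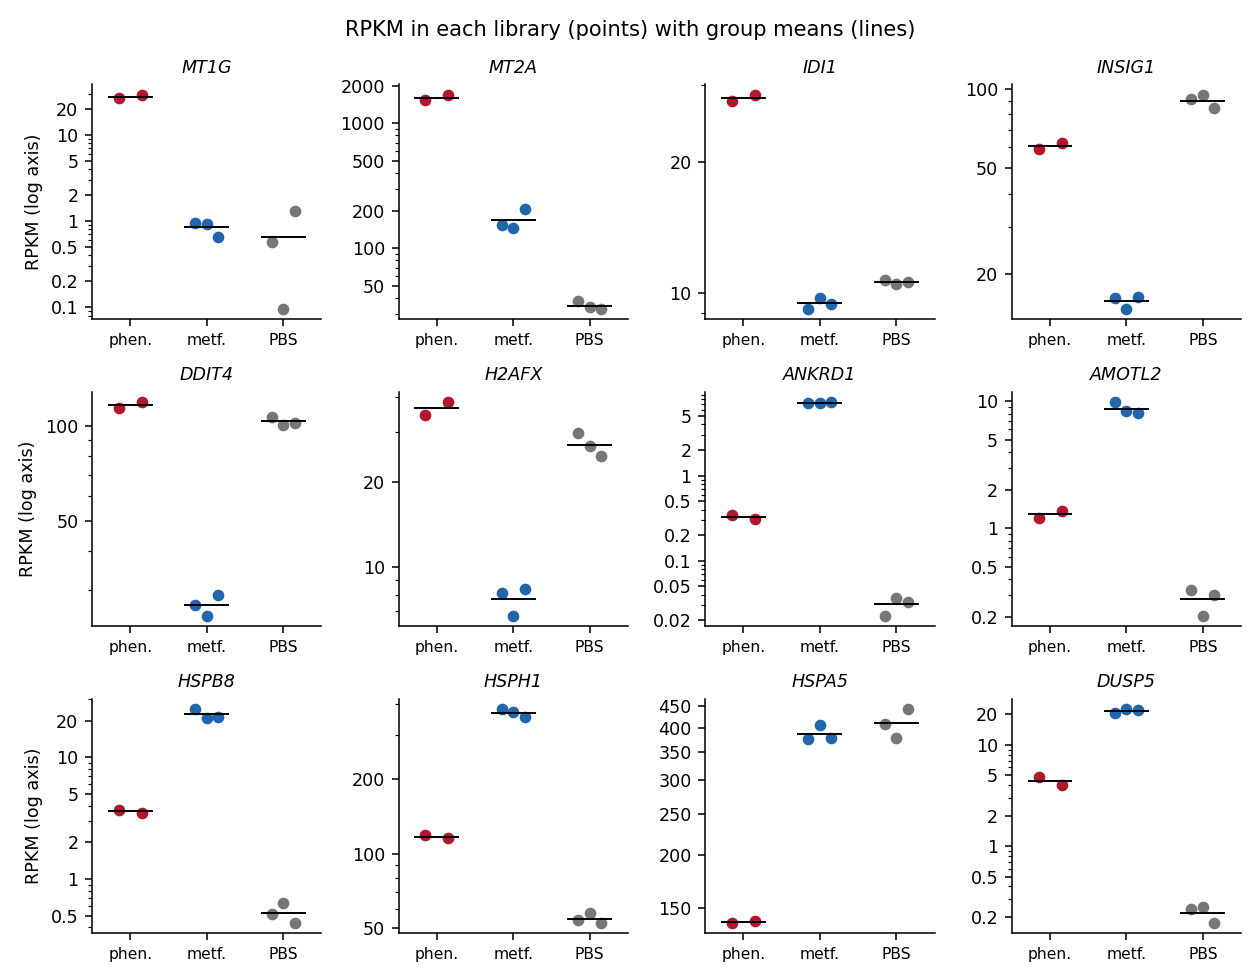
RPKM of 12 genes in each library (points, logarithmic vertical axes) with the group mean as a line, from left to right phenformin (phen., 2 libraries), metformin (metf., 3 libraries) and PBS (3 libraries). MT1G, MT2A, IDI1, INSIG1, DDIT4 and H2AFX are higher with phenformin than with metformin, and ANKRD1, AMOTL2, HSPB8, HSPH1, HSPA5 and DUSP5 are lower.

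Genes of cholesterol synthesis and uptake were higher with phenformin almost throughout. Of 26 genes on the list 25 were compared, and 24 were higher and 0 lower, with a median difference of 0.59, beside 0.11 over all genes. After removal of the length trend 20 were higher and 0 lower (median 0.53). The shares of all genes were 38.4% higher and 26.3% lower, and 30.2% and 32.7% without the length trend. INSIG1, which retains the SREBP factors in the endoplasmic reticulum and is itself an SREBP target, was at 59.3 and 62.5 RPKM with phenformin, against 16.3, 14.8 and 16.4 RPKM with metformin, and at 84.7 to 94.5 RPKM with PBS (1.94 ± 0.06). IDI1, an isomerase of the isoprenoid pathway, was at 27.6 and 28.4 RPKM with phenformin, against 9.21 to 9.76 RPKM with metformin, and at 10.5 to 10.7 RPKM with PBS. SC5D, a sterol desaturase, was the member that did not pass (-0.04, 95% interval -0.16 to 0.08). For 24 of the 25 genes all metformin libraries lay below all PBS libraries (51.2% of all genes), and for 18 the phenformin libraries did so too (37.7% of all genes).

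Genes of fatty acid synthesis did not move as a group. On the list of 18 genes 13 were compared, 6 were higher and 2 lower (7 and 4 without the length trend), with a median difference of 0.18, beside 0.11 over all genes. The shares of all genes were 38.4% higher and 26.3% lower (30.2% and 32.7% without the length trend). SREBF1, which encodes the SREBP-1 factor of lipogenesis, was at 62.1 and 69.2 RPKM with phenformin, against 20.1, 18.1 and 21.4 RPKM with metformin, and at 41.2 to 51.5 RPKM with PBS (1.72 ± 0.08). Fatty acid synthase (FASN, 1.19) and acetyl-CoA carboxylase (ACACA, 1.06) were also higher. The desaturase SCD, at 146 and 147 RPKM with phenformin, against 151 to 163 RPKM with metformin, did not pass the test (-0.09, 95% interval -0.21 to 0.03). It passed as lower after centring (-0.19, adjusted p = 0.0049) and without the length trend (-0.14, adjusted p = 0.015). CPT1B, which brings fatty acids into mitochondria, was higher with phenformin at 12.8 and 12.4 RPKM, against 3.17 to 4.53 RPKM with metformin, but oxidation genes as a list had 8 higher and 3 lower of 17, and 5 higher and 6 lower without the length trend.

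Heat shock genes were lower with phenformin. These chaperones and their cofactors refold proteins and are induced by the factor HSF1. Of 29 listed genes 25 were compared, with 20 lower and 3 higher and a median difference of -0.82. Once the length trend was removed 21 were lower and 3 higher (median -0.83). The shares of all genes were 26.3% lower and 38.4% higher, and 32.7% and 30.2% without the length trend. HSPB8, a small heat shock protein of chaperone-assisted autophagy, was at 3.70 and 3.50 RPKM with phenformin, against 24.9, 21.3 and 21.7 RPKM with metformin, and at 0.436 to 0.632 RPKM with PBS (difference -2.62 ± 0.08, adjusted p = 1.3e-05). HSPH1, a nucleotide exchange factor for HSP70, fell to 119 and 115 RPKM with phenformin, against 381, 372 and 356 RPKM with metformin, and was at 52.6 to 57.6 RPKM with PBS (-1.66 ± 0.05). The small heat shock protein CRYAB was at 9.61 and 9.88 RPKM with phenformin, against 28.5 to 30.8 RPKM with metformin, and at 1.53 to 2.07 RPKM with PBS. BAG3 (-1.35), which joins HSPB8 to HSP70, and STIP1 (-1.10), which joins HSP70 to HSP90, moved likewise. All metformin libraries lay above all PBS libraries for 23 of 25 genes, beside 31.3% of all genes, and all phenformin libraries for 18, beside 38.6%, and the phenformin mean was the nearer to PBS for 22 (88.0%, beside 56.9% of all genes).

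The most abundant heat shock mRNA went the other way. HSPA1B, the inducible HSP70, was at 2212 and 2370 RPKM with phenformin, against 1509, 1393 and 1444 RPKM with metformin, and at 58.0 to 68.3 RPKM with PBS (difference 0.66 ± 0.08, adjusted p = 4.8e-04). Its near-identical copy HSPA1A stayed under 1 RPKM in each library, and how reads were split between the copies is uncertain. HSPB1 (HSP27) was at 1066 and 1201 RPKM with phenformin, against 1111, 956 and 1004 RPKM with metformin, and at 215 to 270 RPKM with PBS, and did not pass (0.15, 95% interval -0.08 to 0.37), and it passed as lower without the length trend (-0.27, adjusted p = 0.0090). HSF1 (0.44) and the mitochondrial co-chaperonin HSPE1 (0.50) were the other members that were higher, and HSPE1 did not pass without the length trend (0.15, adjusted p = 0.15).

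Heat shock promoters are shown for comparison with the metallothioneins. A pair of inverted heat shock units (TTCNNGAA, read on both strands) was found before a start of 9 of the 23 compared genes that had a promoter in the table, beside 8.12% of all 27305 genes. The 250 bases before the start are printed as above for CHORDC1, an HSP90 cochaperone (chr11:90223050-90223299, minus strand), and for HSP90AA1, the inducible HSP90, at the start with matches among its 2 (chr14:102087045-102087294, minus strand).
CHORDC1: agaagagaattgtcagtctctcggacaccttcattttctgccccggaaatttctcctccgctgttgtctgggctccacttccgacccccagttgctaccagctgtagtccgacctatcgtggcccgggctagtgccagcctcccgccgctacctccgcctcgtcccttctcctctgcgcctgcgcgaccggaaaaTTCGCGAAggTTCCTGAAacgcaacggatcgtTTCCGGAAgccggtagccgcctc
HSP90AA1: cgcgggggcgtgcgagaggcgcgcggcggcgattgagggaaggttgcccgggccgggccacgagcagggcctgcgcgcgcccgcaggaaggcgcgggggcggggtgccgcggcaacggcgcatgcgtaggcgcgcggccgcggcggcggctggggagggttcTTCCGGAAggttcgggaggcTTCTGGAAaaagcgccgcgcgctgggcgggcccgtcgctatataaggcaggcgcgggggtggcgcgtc
CHORDC1 held 3 matches and HSP90AA1 2, and both were picked from the 9 genes with matches. No match lay before a start of HSPB8, HSPH1, BAG3 or STIP1, which were lower, or of HSPA1B, which was higher. A match describes the letters only. CHORDC1 was at 38.4 and 37.1 RPKM with phenformin, against 69.9, 71.5 and 66.0 RPKM with metformin, and HSP90AA1 was at 551 and 547 RPKM with phenformin, against 860, 884 and 839 RPKM with metformin. Both were lower with phenformin (-0.87 and -0.65).

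Other motifs were searched in the same windows. The C/EBP-ATF response element TGATGCAA lay before 5 of 21 genes of the integrated stress response, beside 0.967% of all genes. The antioxidant response element TGACNNNGC lay before 5 of 18 NRF2 targets, beside 13.2%. The cyclic AMP response element TGACGTCA lay before 2 of 12 immediate early genes, beside 2.03%. The AP-1 site TGAGTCA lay before 0 of 10 genes on the list of phosphatases and MAP kinase feedback genes, beside 5.19%. That list includes SPRY and SPRED genes. The E-box CACGTG lay before 1 of 6 genes on the list of MondoA targets and arrestins, beside 7.73%. The match was before MLX, and the ARRDC genes on that list had none.

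The 13 mRNAs encoded by mitochondrial DNA, which specify subunits of complexes I, III, IV and V, took 1.05% to 1.08% of the gene reads with phenformin, 3.24% to 3.46% with metformin and 6.18% to 6.65% with PBS. With phenformin 12 were lower and 1 higher, at a median difference of -1.25. Without the length trend the counts were the same and the median was -1.89. The shares of all genes were 26.3% lower and 38.4% higher, and 32.7% and 30.2% without the length trend. MT-CO1, the catalytic subunit of cytochrome oxidase, was at 759 and 736 RPKM with phenformin, against 6187, 6711 and 6730 RPKM with metformin, and at 8738 to 9306 RPKM with PBS (difference -3.13 ± 0.08, adjusted p = 1.3e-05). MT-CO3, of the same complex, was at 172 and 181 RPKM with phenformin, against 714, 745 and 708 RPKM with metformin, and at 6939 to 7425 RPKM with PBS (-2.03 ± 0.06). For MT-CO1 the metformin libraries were nearer to PBS than to phenformin, and for MT-CO3 both drugs were far below PBS.

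Of the mitochondrial mRNAs of complex I, all but 1 were lower. MT-ND4 was at 916 and 951 RPKM with phenformin, against 3531, 3344 and 3714 RPKM with metformin, and at 4689 to 5186 RPKM with PBS (-1.92 ± 0.08). MT-ND2 was the exception, at 1229 and 1229 RPKM with phenformin, against 762, 754 and 809 RPKM with metformin, and at 3432 to 4082 RPKM with PBS (0.67 ± 0.07, adjusted p = 2.3e-04), and its difference was 0.17 without the length trend (adjusted p = 0.019). MT-CO2 (-1.15) and MT-ATP6 (-1.05) showed smaller falls, and MT-CO2 was at 0.16 under quantile normalization. All libraries of both drugs were below all PBS libraries for each of the 13, beside 37.7% of all genes. RPKM is relative to all mapped reads, and neither the RNA nor the mitochondria per cell was measured, so fewer mitochondrial transcripts and more of other RNA cannot be told apart.

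**Figure D4:**
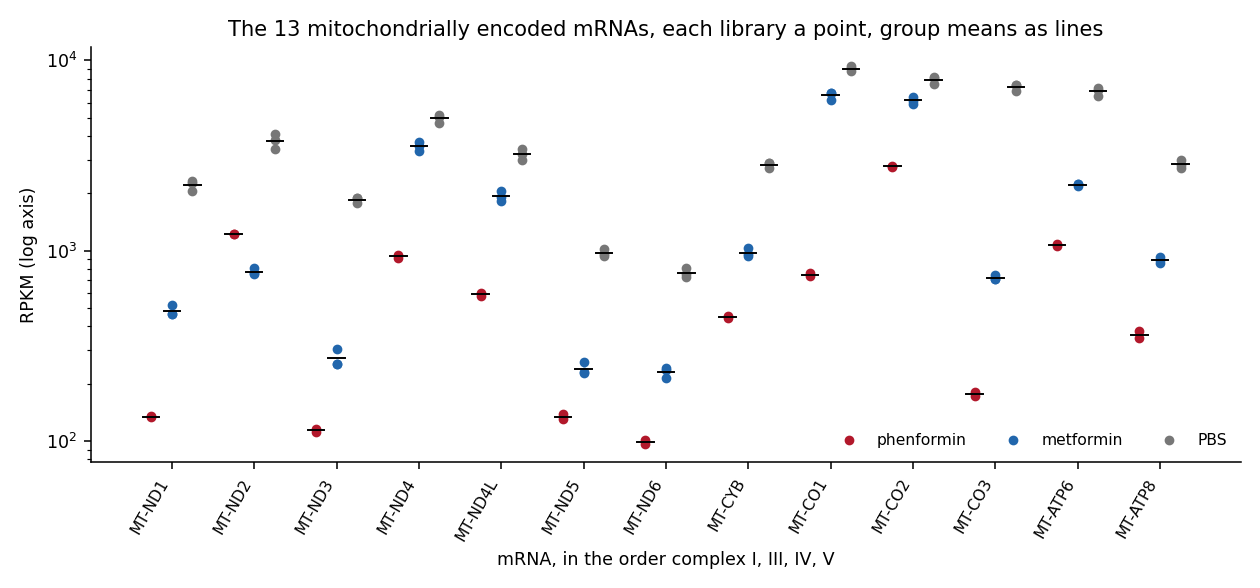
RPKM (logarithmic axis) of the 13 mitochondrially encoded mRNAs in each library, phenformin, metformin and PBS from left to right within a gene, with group means as lines. Phenformin lies below metformin for 12 mRNAs and above it for MT-ND2 (1229 and 1229 against 754 to 809 RPKM), and both lie below PBS.

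Nuclear genes of the same complexes were mostly higher with phenformin. Of 36 compared complex I subunits (38 listed) 30 were higher and 2 lower with phenformin, with a median of 0.62. Of 34 compared subunits of complexes III to V (35 listed) 28 were higher and 2 lower (median 0.62). Of all genes, 38.4% were higher and 26.3% lower (median 0.11). Many of the subunit genes are short: the median exon length was 2552 and 2318 bases. With the length trend removed 27 and 20 were higher, 3 and 5 lower, and the medians were 0.31 and 0.28. NDUFB3, an accessory subunit of complex I, was at 58.1 and 60.3 RPKM with phenformin, against 22.2, 23.9 and 23.6 RPKM with metformin, and at 35.1 to 36.9 RPKM with PBS (1.35 ± 0.05, and 0.86 without the length trend). ATP5I, a subunit of ATP synthase, was at 129 and 139 RPKM with phenformin, against 44.1 to 48.8 RPKM with metformin, and at 70.6 to 74.7 RPKM with PBS (1.52 ± 0.06). The core subunits NDUFS1 (-0.32) of complex I and UQCRC2 (-0.22) of complex III were lower, and NDUFS1 did not pass without the length trend. ATP5A1, the alpha subunit of ATP synthase, did not differ at this precision (0.01, 95% interval -0.14 to 0.15), and was at -0.14 without the length trend (adjusted p = 0.017) and at -0.16 under quantile normalization. The phenformin libraries lay above PBS and the metformin libraries below PBS for 18 of 36 and 19 of 34 genes, beside 6.51% of all genes. These positions were taken on the RPKM scale with the length trend left in, and the share is over genes of all lengths.

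Cytosolic ribosomal protein genes behaved similarly. Of 75, 63 were higher and 1 (RPSA) was lower with phenformin, with a median of 0.50, beside 38.4% higher and 26.3% lower of all genes. Without the length trend 51 were higher and 10 lower (median 0.30), beside 30.2% and 32.7% of all genes. RPS27 was at 295 and 311 RPKM with phenformin, against 152, 147 and 142 RPKM with metformin, and at 104 to 117 RPKM with PBS. Processed pseudogenes share sequence with these genes, so their values are uncertain. Nuclear long noncoding RNAs and snoRNA host genes were higher for 13 of 14 compared and for 9 without the length trend. GAS5 was at 125 and 127 RPKM with phenformin, against 58.2, 55.2 and 54.9 RPKM with metformin, and at 42.9 to 48.2 RPKM with PBS (1.17 ± 0.05, and 1.01 without the length trend). TUG1 did not pass (0.01, 95% interval -0.10 to 0.12).

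Targets of YAP and TEAD, the transcription factors held back by the Hippo kinases, included the largest fall of all. ANKRD1, a muscle ankyrin repeat protein and standard YAP target, was at 0.350 and 0.311 RPKM with phenformin, against 7.07, 7.12 and 7.31 RPKM with metformin, and at 0.0226 to 0.0365 RPKM with PBS (difference -4.08 ± 0.09, adjusted p = 1.3e-05). AMOTL2, a YAP target that also binds and restrains YAP, was at 1.21 and 1.37 RPKM with phenformin, against 9.84, 8.38 and 8.08 RPKM with metformin, and at 0.205 to 0.325 RPKM with PBS (-2.67 ± 0.11). The matricellular proteins CTGF (-1.58) and CYR61 (-1.13) were lower too, as were YAP1 (-0.77), TEAD1 (-0.73) and the Hippo kinase LATS2 (-0.85). On the list 12 of 18 genes were compared, with 8 lower and 2 higher (1 higher without the length trend). The shares of all genes were 26.3% lower and 38.4% higher (32.7% and 30.2% without the length trend). NUAK2, an AMPK-related kinase and YAP target, was the larger of the 2 rises (1.43), at 1.28 and 1.27 RPKM with phenformin, against 0.332 to 0.478 RPKM with metformin. Both drugs were above PBS for 8 of the 12, beside 24.2% of all genes.

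Immediate early and MAP kinase feedback genes were divided. DUSP5, a nuclear phosphatase of ERK, fell to 4.82 and 3.98 RPKM with phenformin, against 20.6, 22.5 and 22.0 RPKM with metformin, and was at 0.175 to 0.249 RPKM with PBS (-2.28 ± 0.09). DUSP1 was at 114 and 120 RPKM with phenformin, against 205 to 217 RPKM with metformin, and at 0.844 to 1.43 RPKM with PBS. The list of phosphatases and MAP kinase feedback genes, which includes SPRY and SPRED genes, had 12 of 14 genes compared. Of these, 7 were lower and 3 higher, also without the length trend. Of the immediate early list 15 of 25 were compared, 8 were lower and 6 higher (9 and 6 without the length trend). Beside these lists, 26.3% of all genes were lower and 38.4% higher (32.7% and 30.2% without the length trend). The factors IER5 (-1.77), KLF10 (-1.26) and KLF4 (-0.80) were lower, and BHLHE40 (1.57), JUND (1.34) and JUN (0.80) were higher. BHLHE40, a repressor of the circadian system, was at 71.3 and 72.0 RPKM with phenformin, against 21.7 to 25.6 RPKM with metformin, and at 17.7 to 18.6 RPKM with PBS. MYC, a driver of ribosome and cell cycle genes, was at 44.8 and 45.2 RPKM with phenformin, against 15.8, 17.6 and 20.9 RPKM with metformin, and at 66.6 to 69.0 RPKM with PBS (1.32 ± 0.11). The remaining large falls were KRT75 (-3.17), C8orf4 (-2.78), HEG1 (-2.59), SIPA1L2 (-2.58), RP11-553A10.1 (-2.54), LSMEM1 (-2.39) and the LIM-domain coactivator FHL2 (-2.24). Over the 304 genes at least 2-fold lower with phenformin, all metformin libraries were above all PBS libraries for 249, and all phenformin libraries were so for 156. Of all genes, the metformin libraries lay above PBS for 31.3% and the phenformin libraries for 38.6%. The 304 genes were selected for higher levels with metformin than with phenformin, which by itself favours metformin above PBS.

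Between the drugs the integrated stress response was close to balanced, with 9 genes higher, 10 lower and 5 not passing of 24 (median 0.08). Without the length trend 5 were higher and 12 lower. The shares of all genes were 38.4% higher and 26.3% lower, and 30.2% and 32.7% without the length trend. Both drugs were above PBS for 13 of the 24 genes (24.2% of all genes) and below PBS for 4 (37.7%). DDIT3, which encodes CHOP, was at 370 and 372 RPKM with phenformin, against 315, 322 and 369 RPKM with metformin, and at 49.5 to 63.4 RPKM with PBS, and did not pass (0.15, 95% interval -0.04 to 0.34), and it passed as lower without the length trend (-0.33, adjusted p = 0.0047). ATF4 mRNA (-0.08, adjusted p = 0.43) and the eIF2 phosphatase subunit PPP1R15A (0.05, adjusted p = 0.63) did not pass either. Asparagine synthetase (ASNS), an ATF4 target, was at 111 and 111 RPKM with phenformin, against 113 ± 3.14 RPKM with metformin (SD, n = 3) (-0.03, 95% interval -0.14 to 0.09). ASNS and ATF4 passed as lower after centring (-0.12 and -0.17, adjusted p = 0.027 and 0.038) and without the length trend (-0.13 and -0.35, adjusted p = 0.024 and 0.0011). Against this, DDIT4, an inhibitor of mTORC1, was at 114 and 119 RPKM with phenformin, against 27.0, 24.9 and 28.9 RPKM with metformin, and at 101 to 107 RPKM with PBS (2.11 ± 0.07, adjusted p = 1.4e-05). CHAC1, a glutathione-degrading enzyme, was at 16.8 and 17.6 RPKM with phenformin, against 4.95, 4.02 and 4.89 RPKM with metformin, and at 18.1 to 18.8 RPKM with PBS (1.88 ± 0.10). ATF3 fell to 270 and 278 RPKM with phenformin, against 483, 469 and 458 RPKM with metformin (-0.78), and the eIF2 kinase EIF2AK3 fell to 10.6 and 10.3 RPKM with phenformin, against 23.8 to 26.1 RPKM with metformin (-1.27).

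Chaperones of the endoplasmic reticulum and genes of its unfolded protein response were more often lower. Of 27 compared, 16 were lower and 6 higher (18 and 4 without the length trend), beside 26.3% lower and 38.4% higher of all genes. HSPA5, the chaperone BiP, was at 138 and 139 RPKM with phenformin, against 376, 406 and 377 RPKM with metformin, and at 378 to 442 RPKM with PBS (-1.48 ± 0.06). The metformin and PBS libraries overlapped and phenformin stood apart. SDF2L1, a BiP cofactor, was higher at 13.1 and 15.9 RPKM with phenformin, against 6.24 to 7.16 RPKM with metformin (1.09), while the factor XBP1 was lower (-0.82). P4HB, a protein disulfide isomerase, did not pass (0.06), and was at -0.13 under quantile normalization. The phenformin libraries were below PBS for 25 of the 27 genes, beside 46.2% of all genes, and the metformin libraries for 21, beside 51.2%.

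On the list of the androgen receptor and prostate lineage factors, 7 of 10 genes were compared. All 7 were higher with phenformin, also without the length trend, with a median difference of 0.88. Among them were SPDEF, HOXB13 and GRHL2. SPDEF, an ETS factor of luminal cells, was at 28.7 and 31.4 RPKM with phenformin, against 14.4 ± 0.619 RPKM with metformin (SD, n = 3), and at 30.5 to 36.0 RPKM with PBS (1.05 ± 0.06). HOXB13 (0.95) and GRHL2 (1.01) differed by nearly the same amount. Androgen-responsive genes were higher for 15, lower for 5 and not past the test for 2 of 22 (median 0.41), beside 38.4% higher and 26.3% lower of all genes. Without the length trend 14 of the 22 were higher and 6 lower. KLK3, which encodes prostate-specific antigen, was at 102 and 106 RPKM with phenformin, against 82.7, 73.9 and 83.8 RPKM with metformin, and at 349 to 429 RPKM with PBS. KLK4 was at 34.4 and 32.4 RPKM with phenformin, against 15.8 to 17.1 RPKM with metformin, and at 112 ± 6.01 RPKM with PBS (SD, n = 3) (1.02 ± 0.06). KLK3 and KLK4 were far below PBS with both drugs. The phenformin mean was the nearer to PBS for 17 of the 22 genes (77.3%, beside 56.9% of all genes). STEAP2 (-0.27) and ALDH1A3 (-0.41) were among the 5 lower genes.

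Cell cycle genes were mostly higher with phenformin. Of 34 compared genes of DNA replication and E2F, 26 were higher and 3 lower (median 0.52), and of 34 genes of mitosis 25 were higher and 1, the mitotic inhibitor WEE1 (-0.97), lower (median 0.53). Of all genes, 38.4% were higher and 26.3% lower (median 0.11). Without the length trend the counts of the lists were 21 higher and 4 lower, and 24 higher and 4 lower. AURKB, the kinase of the chromosomal passenger complex, was at 10.7 and 10.3 RPKM with phenformin, against 3.70, 3.49 and 4.45 RPKM with metformin, and at 5.22 to 6.69 RPKM with PBS (1.42 ± 0.11). POLE, the leading-strand polymerase, was at 7.73 and 7.46 RPKM with phenformin, against 3.67 to 4.05 RPKM with metformin, and at 3.45 to 3.73 RPKM with PBS (0.97). CCNB1 did not pass (0.08, 95% interval -0.04 to 0.21), and passed as lower without the length trend (-0.19, adjusted p = 0.0056). The CDK inhibitor CDKN1A (p21) fell to 12.5 and 12.6 RPKM with phenformin, against 26.7, 24.4 and 28.6 RPKM with metformin, and was at 6.37 to 7.51 RPKM with PBS (-1.07 ± 0.07). Cyclin D1 (CCND1) was at 9.10 and 9.98 RPKM with phenformin, against 4.87 to 5.27 RPKM with metformin, and at 30.1 to 31.5 RPKM with PBS.

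Histone genes that are expressed in S phase were higher for 21 of 23 compared (30 listed) and lower for 0, with a median of 0.97. They are short, with a median exon length of 865 bases, and without the length trend 13 were higher and 2 lower (median 0.46). Over all genes the shares were 38.4% higher and 26.3% lower, and 30.2% and 32.7% without the length trend. HIST1H1E, a linker histone, was at 3.77 and 5.06 RPKM with phenformin, against 0.332, 0.401 and 0.180 RPKM with metformin, and at 0.829 to 1.00 RPKM with PBS (3.51 ± 0.28, and 2.98 without the length trend). HIST1H1C, the most abundant of them with phenformin, was at 104 and 110 RPKM with phenformin, against 50.6 to 69.9 RPKM with metformin, and at 71.8 to 77.7 RPKM with PBS. These mRNAs mostly lack a poly(A) tail and are near-identical copies, so in poly(A)-selected libraries their levels are uncertain.

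**Figure D5:**
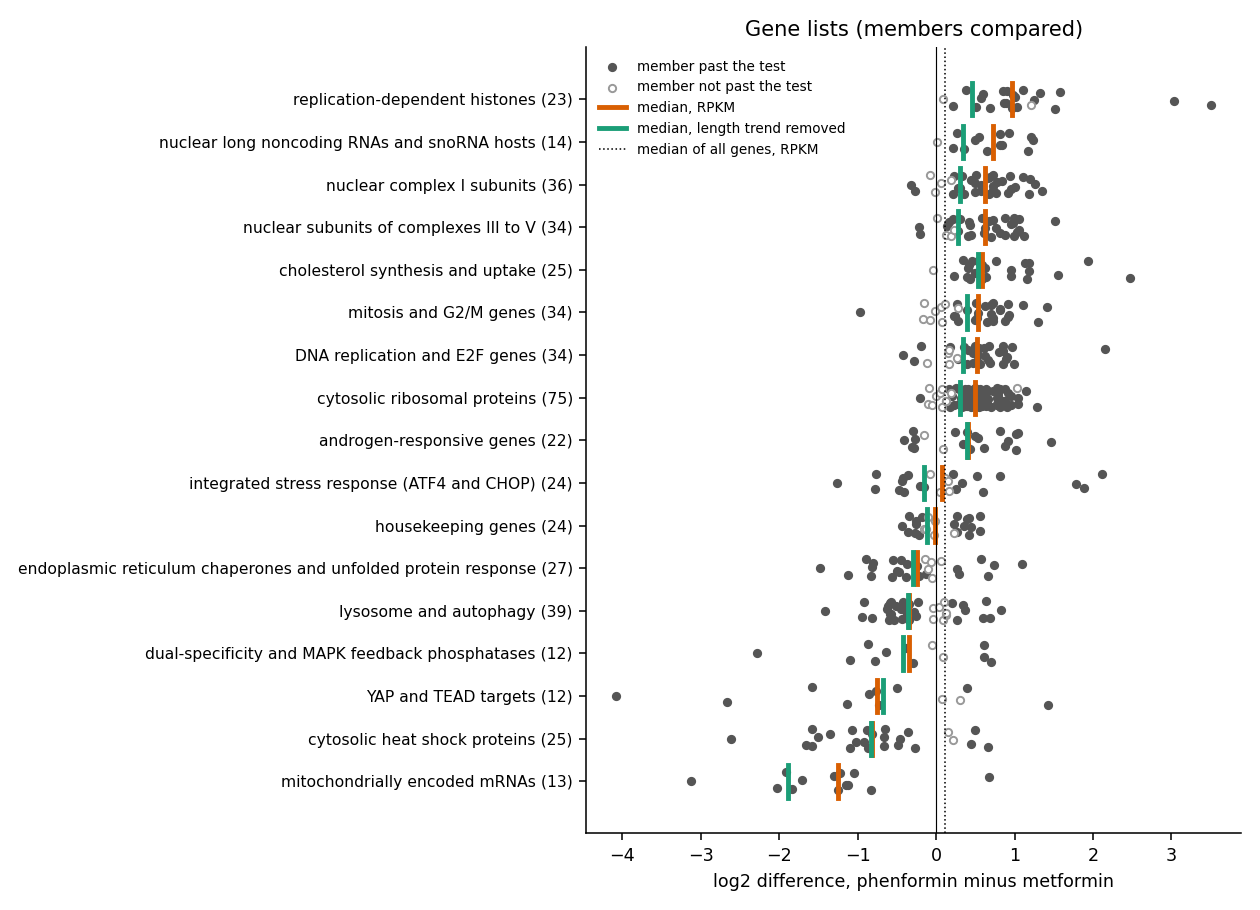
Log2 difference, phenformin minus metformin, of the members of 17 gene lists (number compared in parentheses). Filled points passed the test and open points did not, thick marks are list medians on the RPKM scale and without the length trend, and the dotted line is the median of all genes (0.11). The medians run from 0.97 for replication-dependent histones to -1.25 for mitochondrially encoded mRNAs.

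Other lists moved in both directions. Beside these lists, 38.4% of all genes were higher and 26.3% lower (30.2% and 32.7% without the length trend). Of 24 housekeeping genes 10 were higher and 8 lower (median -0.02), and 7 were higher and 11 lower without the length trend. ACTB was at 840 and 863 RPKM with phenformin, against 974, 884 and 988 RPKM with metformin, and did not pass (-0.15, adjusted p = 0.11), and was at 0.11 under quantile normalization. It passed as lower after centring (-0.25, adjusted p = 0.0038) and without the length trend (-0.35, adjusted p = 4.5e-04). The p53 targets were 9 higher and 13 lower of 29 (median 0.02), and 6 higher and 15 lower without the length trend. GADD45G, a growth arrest gene, was at 71.2 and 85.7 RPKM with phenformin, against 21.7 to 23.5 RPKM with metformin (1.78), whereas TP53INP1, an autophagy cofactor, was at 0.576 and 0.265 RPKM with phenformin, against 1.24 to 1.97 RPKM with metformin (-1.78). Among 11 transporters reported for biguanides, 1 reached the limit on levels, the carnitine transporter SLC22A5 (-0.24, adjusted p = 0.14).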

How the data were processed

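C4-2 RNA was sequenced from poly(A)-selected libraries (TruSeq mRNA, Illumina HiSeq). The authors mapped and counted reads with CLC Genomics Workbench and deposited 1 table of RPKM values per gene, on build GRCh37.p13 per the submitters' notes. Neither strand use nor the annotation release is stated in these sources. The RPKM steps returned whole reads for 100% of 25529 features (tolerance 0.01 read), which gave depth and exon length. Genes reaching 1 RPKM in 2 or more of the 5 treated libraries were fitted as log2(RPKM + 0.1) with limma 3.58.1 (eBayes with trend, R 4.3.3), with Benjamini-Hochberg adjustment and a limit of 0.05. The script was tested on simulated data. PBS libraries entered no test except in alternatives.

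The genes compared and the lists were chosen with earlier results of these data known. Genes were named as the 12 largest rises and falls among called genes whose groups did not overlap and whose higher mean reached 5 RPKM, up to 3 called members of each list with the largest differences, the most abundant member of each list that did not pass, and the 10 most abundant genes. Further members were chosen as examples after their values were seen. Promoters came from RefSeq (GRCh38.p14), with no coordinates converted. Alternatives covered pseudocount, filters, scaling, spread estimate, threshold, replicate block, recovered reads (limma-voom), exon length and left-out libraries. A few genes that the rule names are not reported here.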

Additional observations from a re-analysis of the deposited data

How the results depend on the processing

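The count of 7151 genes called became 4681 with a mean RPKM of at least 5 (2609 higher, 2072 lower) and 1078 against a 1.5-fold limit (689 higher, 389 lower). Leaving out 1 library gave 5354 to 6967 called, 3048 to 4265 higher and 2257 to 2938 lower. Of 147 named genes called, 139 passed in every alternative that fitted them other than the 1.5-fold limit, and 104 in every one that fitted them. Genes under a mean RPKM of 5 were not fitted in the alternative with that filter. By contrast, 22 named genes not called passed in the same direction in at least 1 alternative. Among named genes that passed in either of the 2 fits, the sign turned without the length trend for DDIT3 (-0.33), HSPB1 (-0.27), ATP5A1 (-0.14), RPL13A (-0.22), CCNB1 (-0.19), FTH1 (-0.29) and PSMB1 (-0.21). Under quantile normalization it turned, on the same condition, for P4HB (-0.13), ENO1 (-0.15), MDH2 (-0.10), ATP5A1 (-0.16), ACTB (0.11) and MT-CO2 (0.16). Of these genes only MT-CO2 passed the test on the RPKM scale. MT-CO2 had the highest RPKM of all genes in both phenformin libraries (2760 and 2791). In each metformin library it lay below MT-CO1 (5905, 6132 and 6450 against 6187, 6711 and 6730 RPKM). Quantile normalization gives every library the same value at a given rank, so the sign of MT-CO2 there reflects its rank. For the other genes the cause was not tested. With the replicate number as a replicate block 6477 genes were called in 5 libraries and 7037 in 8. The deviations of same-numbered libraries from their group means had a correlation of -0.0116 for number 1 and -0.0539 for number 2. With 2 phenformin libraries the deviations of one mirror those of the other, so these values cannot settle whether libraries were paired. The replicate numbers are not stated to pair the libraries and were not taken to do so. The spread rests on 3 residual degrees of freedom, and counting error is large for genes near 1 RPKM.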

Other observations

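Lysosome and autophagy genes were more often lower with phenformin, with 24 lower and 8 higher of 39, and 27 and 7 without the length trend. The shares of all genes were 26.3% lower and 38.4% higher, and 32.7% and 30.2% without the length trend. MITF, a factor of lysosome genes, was at 4.82 and 4.54 RPKM with phenformin, against 12.4, 13.2 and 12.5 RPKM with metformin, and at 1.77 to 1.86 RPKM with PBS (-1.42 ± 0.06). Targets of the hypoxia-inducible factors were lower for 10 and higher for 3 of 16, also without the length trend. CA12, a carbonic anhydrase, was at 1.83 and 1.67 RPKM with phenformin, against 5.75 to 7.05 RPKM with metformin, and at 1.90 to 2.10 RPKM with PBS. TGF-beta, SMAD and ID genes were lower for 10 and higher for 3 of 18 (13 and 2 without the length trend), with the inhibitory SMAD6 among the higher ones (1.65).

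Amino acid transporters were lower for 8 and higher for 2 of 14, also without the length trend. As above, 26.3% of all genes were lower and 38.4% higher (32.7% and 30.2% without the length trend). SLC38A2, a glutamine carrier, was at 105 and 104 RPKM with phenformin, against 216 to 250 RPKM with metformin, and at 112 to 117 RPKM with PBS (-1.15 ± 0.07). NRF2 targets were divided (8 higher and 7 lower of 26, 7 and 12 without the length trend). Thioredoxin reductase (TXNRD1) was lower with phenformin than with metformin by 1.15 on the log2 scale. The coactivators of mitochondrial biogenesis differed in direction, with PPARGC1A lower (-1.08) and PPARGC1B higher (1.38), both at under 2 RPKM in the treated libraries. Proteasome genes were higher for 16 and lower for 4 of 31, but for 8 and 11 without the length trend.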
